A study of Mus musculus with 10 samples.

Results

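The 9 genes described here, Mbp, Mobp, Cnp, Cldn11, Mal, Mag, Mog, Ermn and Opalin, encode structural proteins of central myelin and late products of oligodendrocytes. They were chosen by name for that function, and all 9 were found among the 35275 genes of the table. The RNA was extracted from motor cortex of C57BL/6 animals aged 22 postnatal days. Wild-type (WT) and knockout (KO) groups hold 5 biological repeats each. In KO mice membralin, a membrane protein encoded by Tmem259, was conditionally deleted in astrocytes, and the Cre line was not given in the sources used. Levels are in FPKM, fragments scaled by gene length and library total, which allows genes to be compared.

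Oligodendrocytes extend processes that wrap axons in layers of membrane, from which cytoplasm is squeezed out to leave compact myelin. The sheath speeds conduction and supports the axon. At the age studied, myelination of mouse cortex is under way. In tissue RNA, fewer cells of a type and less RNA per cell cannot be told apart.

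Tmem259 did not pass the test in this tissue RNA (log2 difference -0.27 ± 0.16, SE; limma adjusted p = 0.275). It was at 23.8 to 32.4 FPKM in WT and 16.9 to 20.1 FPKM in KO1, KO2 and KO4. KO5, at 26.2 FPKM, lay above 3 WT libraries, and the library labelled KO3, at 34.4 FPKM, lay above all 5. All 6 reactive astrocyte genes tested were called higher in KO, where 9.77% of all genes were (limma, adjusted p under 0.05). With the library labelled KO3 left out all 6 were called higher too, where 19.6% of all genes were. Among them the intermediate filament gene Gfap rose by a log2 difference of 1.91 ± 0.38 (SE; limma adjusted p = 0.0186). Its difference was 2.35 when the library labelled KO3 was left out. Gfap was at 106 FPKM in that library, within the WT range of 79.4 to 114 FPKM, and at 426 to 673 FPKM in the other KO libraries. The 9 genes and the counts of calls in gene lists are therefore given with and without it. Libraries held 22793058 to 28827871 fragments assigned to genes. The 9 genes had from 271 (Opalin) to 73554 (Mbp) fragments in a library. The counting error of Opalin, 6.07% in its lowest library, was below the 15.5% by which it varied between WT mice.

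All 9 genes had a lower mean in KO than in WT, and Mal alone passed the test over all genes. KO means were 78.8% (Mobp) to 91.9% (Cldn11) of WT means. Of 14497 genes tested, 3.51% were called lower and 9.77% higher (limma, adjusted p under 0.05), and none of the 9 was called higher. At an unadjusted p under 0.05, 7 of the 9 were lower, where 7.75% of all genes were. The median log2 fold change was -0.27 over the 9 genes and 0.08 over all genes tested. When the library labelled KO3 was left out, Mbp, Mobp, Mag, Mog, Mal and Ermn were called lower. In that fit 6.36% of all genes were called lower and 19.6% higher, and the median of the 9 was -0.34. In all 10 libraries a fold change below 0, seen for all 9, was seen for 30.5% of all genes. That share is for the deposited scale, on which the median of all genes lay above 0.

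**Figure D1:**
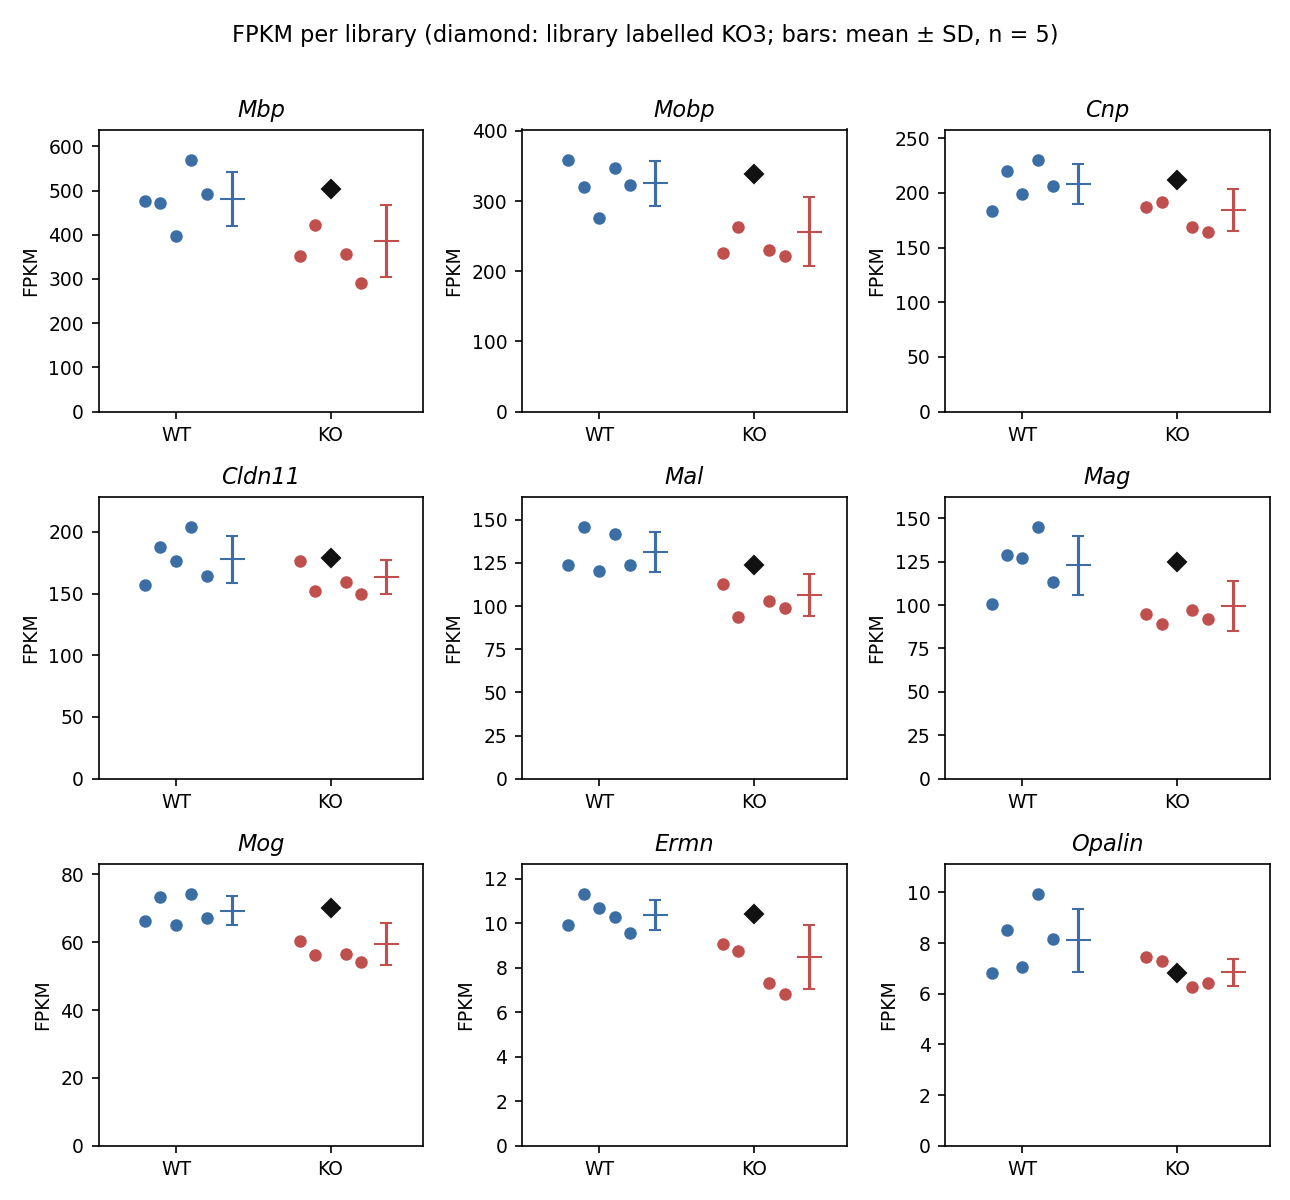
Level of each of the 9 genes in FPKM (vertical axis, from 0) in the 5 WT and 5 KO libraries, 1 point per library, with group mean and SD. The library labelled KO3 is the highest KO value for 8 genes and the middle one for Opalin.

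Mbp and Mobp encode small basic proteins that hold the cytoplasmic faces of the membrane together. Mbp (ENSMUSG00000041607, chromosome 18, 82475146 to 82585637, plus strand, mm10) was the most abundant of the 9. WT1 to WT5 had 476, 472, 398, 570 and 492 FPKM of Mbp, and KO1 to KO5 had 352, 423, 503.7, 357 and 292 FPKM. KO1, KO4 and KO5 lay below every WT library, while the library labelled KO3 lay above 4 of the 5. The log2 difference of Mbp was -0.34 ± 0.14 (SE; limma adjusted p = 0.111), and with the library labelled KO3 left out it was -0.44 ± 0.12 (SE; limma adjusted p = 0.0189).

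Mobp (ENSMUSG00000032517, chromosome 9, 120149742 to 120181484, plus strand) was second in level. WT1 to WT5 had 359, 321, 276, 347 and 323 FPKM of Mobp, and KO1 to KO5 had 226, 264, 339, 230 and 222 FPKM. Every KO library but the library labelled KO3 lay below every WT library. Its log2 difference was the largest of the 9 in size, -0.36 ± 0.12 (SE; limma adjusted p = 0.0605), and -0.46 ± 0.08 (SE; limma adjusted p = 0.00309) with the library labelled KO3 left out. The other 4 KO libraries averaged 72.4% of the WT mean.

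Mal encodes a proteolipid that sorts membrane proteins to the sheath. Mal (ENSMUSG00000027375, chromosome 2, 127633226 to 127656695, minus strand) stood at 124, 146, 120, 142 and 124 FPKM in WT1 to WT5 and at 113, 93.8, 124, 103 and 98.6 FPKM in KO1 to KO5. It fell in KO by a log2 difference of -0.30 ± 0.08 (SE; limma adjusted p = 0.0372). On mean FPKM the exact two-sided permutation p was 0.0159. All 5 KO libraries were below the WT mean, and the groups overlapped through the library labelled KO3, which lay above WT3. The call ended when WT1, WT2, WT4, WT5, KO1, KO2, KO4 or KO5 was left out, at log2 differences of -0.32 to -0.26. It also ended without a filter, with the replicate block, with a covariate of olfactory bulb markers and in the exact permutation test adjusted over all genes (adjusted p = 0.0753, 0.0784, 0.295 and 0.114). With that covariate and in that exact test no gene of the table passed. In the fits without WT1, without KO2 or without KO4, only 2 genes of the table passed in each. With the library labelled KO3 left out Mal was called, at -0.36 ± 0.08 (SE; limma adjusted p = 0.00647).

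Mag, Mog and Opalin encode membrane glycoproteins. Mag (ENSMUSG00000036634, chromosome 7, 30899176 to 30914873, minus strand), on the innermost turn, faces the axon. Its levels were 100, 129, 127, 145 and 113 FPKM in WT1 to WT5 and 94.8, 89.3, 125, 97.2 and 91.7 FPKM in KO1 to KO5. The KO libraries other than that labelled KO3 lay close together and below every WT library. The log2 difference of Mag was -0.30 ± 0.11 (SE; limma adjusted p = 0.0789), or -0.38 ± 0.09 (SE; limma adjusted p = 0.0112) with the library labelled KO3 left out.

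Mog (ENSMUSG00000076439, chromosome 17, 37010743 to 37023398, minus strand) lies on the outermost surface of the sheath and appears late in maturation. Its levels were 66.2, 73.4, 65.1, 74.3 and 67.3 FPKM in WT1 to WT5 and 60.3, 56.3, 70.04, 56.5 and 54.3 FPKM in KO1 to KO5. Mog varied least between WT mice of the 9 genes, by 6.16% of its mean, and 4 KO libraries were below all WT libraries. The log2 difference of Mog was -0.22 ± 0.07 (SE; limma adjusted p = 0.0605), or -0.28 ± 0.06 (SE; limma adjusted p = 0.00544) with the library labelled KO3 left out.

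Opalin (ENSMUSG00000050121, chromosome 19, 41062474 to 41077113, minus strand) was the lowest of the 9 in level. WT1 to WT5 had 6.82, 8.53, 7.07, 9.94 and 8.15 FPKM of Opalin, and KO1 to KO5 had 7.44, 7.31, 6.83, 6.25 and 6.42 FPKM. KO1 and KO2 were above WT1 and WT3, so the groups overlapped widely. The library labelled KO3 held the middle KO value. Opalin did not pass in either fit, with -0.21 ± 0.09 (SE; limma adjusted p = 0.136) in all libraries and -0.21 ± 0.10 (SE; limma adjusted p = 0.142) with that library left out. The 95% interval of its difference was -0.40 to -0.01.

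Cnp encodes an enzyme that keeps cytoplasmic channels of the sheath open and is made early in differentiation. Cnp (ENSMUSG00000006782, chromosome 11, 100574904 to 100591729, plus strand) stood at 183, 220, 199, 230 and 206 FPKM in WT1 to WT5 and 187, 191, 212, 169 and 164 FPKM in KO1 to KO5. KO4 and KO5 were below every WT library, and the other KO libraries were within the WT range. The log2 difference of Cnp was -0.17 ± 0.08 (SE; limma adjusted p = 0.171), or -0.22 ± 0.08 (SE; limma adjusted p = 0.0549) with the library labelled KO3 left out. Cnp overlaps Dnajc7 on the opposite strand, at 30.7 to 35.8 FPKM, and no source states whether counting used strand.

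Cldn11 encodes the claudin of tight junctions along the sheath. Cldn11 (ENSMUSG00000037625, chromosome 3, 31149946 to 31164324, plus strand) stood at 157, 187, 176, 204 and 165 FPKM in WT1 to WT5 and 177, 152, 179, 159 and 150 FPKM in KO1 to KO5. The groups overlapped, with only KO2 and KO5 below all WT libraries. Its log2 difference was the smallest of the 9, -0.12 ± 0.08 (SE; limma adjusted p = 0.331), with a 95% interval of -0.30 to 0.06. With the library labelled KO3 left out it was -0.15 ± 0.08 (SE; limma adjusted p = 0.195).

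Ermn encodes ermin, a cytoskeletal protein of late oligodendrocytes. Ermn (ENSMUSG00000026830, chromosome 2, 58045113 to 58052864, minus strand) stood at 9.92, 11.3, 10.7, 10.3 and 9.56 FPKM in WT1 to WT5 and 9.08, 8.73, 10.4, 7.32 and 6.80 FPKM in KO1 to KO5. KO4 and KO5 were lowest, and 4 KO libraries lay below all WT libraries. The log2 difference of Ermn was -0.27 ± 0.09 (SE; limma adjusted p = 0.0717), or -0.34 ± 0.08 (SE; limma adjusted p = 0.0118) with the library labelled KO3 left out.

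The exact two-sided permutation test of mean FPKM gave p from 0.0159 (Mal) to 0.198 (Cldn11), where 5 against 5 allow no p below 0.00794. On log2 levels of every gene tested, the exact permutation test put 4363 genes at an unadjusted p under 0.05, and none passed after adjustment. With that lowest possible p, adjustment over 14497 genes leaves little room for any to pass, so this absence of calls says little about single genes. None of the 9 had all KO libraries below all WT libraries, as 1.85% of all genes did. Mobp, Mag, Mog, Mal and Ermn had KO1, KO2, KO4 and KO5 below all WT libraries, as 5.80% of all genes did.

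**Figure D2:**
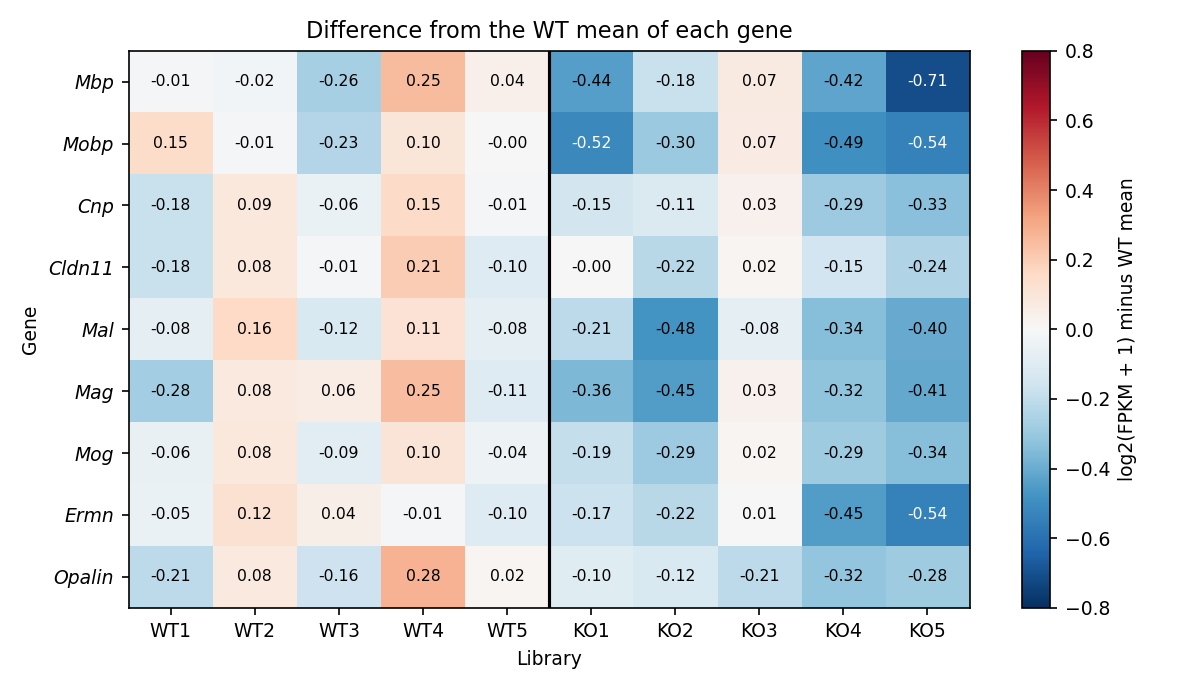
Difference of each library (columns) from the WT mean of each gene (rows) in log2(FPKM + 1), blue for lower and red for higher. KO1, KO2, KO4 and KO5 are below 0 in all 9 rows, while KO3 is below 0 for Mal and Opalin only.

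Read by library, KO1, KO2, KO4 and KO5 were below the WT mean for all 9 genes and the library labelled KO3 for 2. KO5 was below the lowest WT library for 9 genes, KO4 for 8, KO1 and KO2 for 6 each, and the library labelled KO3 for 0. The 9 genes together took 0.514% ± 0.0473 of fragments in WT and 0.421% ± 0.0675 in KO (SD, n = 5 each). The share was 0.529% in the library labelled KO3 and 0.351% to 0.435% in the other KO libraries. Those 4 lay below the WT range of 0.453% to 0.585%.

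In WT the order of mean levels was Mbp, Mobp, Cnp, Cldn11, Mal, Mag, Mog, Ermn and Opalin. Every neighbouring pair but Mal and Mag kept that order in all 10 libraries, and Mal was above Mag in 7. The ranges of Mal and Mag, of Cnp and Cldn11, and of Ermn and Opalin overlapped in both genotypes, and those of Mbp and Mobp in KO. The largest step was from Mog to Ermn, a ratio of WT means of 6.68.

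With each level divided by the geometric mean of the 9 in its library, Cnp was the only gene whose groups did not overlap. Its log2 ratio was 1.15 ± 0.05 in WT and 1.24 ± 0.04 in KO (SD, n = 5 each). The gap was narrow, from 1.1925 in WT3 to 1.1935 in the library labelled KO3. The ratio of Cldn11 was 0.14 higher in KO and that of Mobp differed by -0.10. These ratios were not tested.

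**Figure D3:**
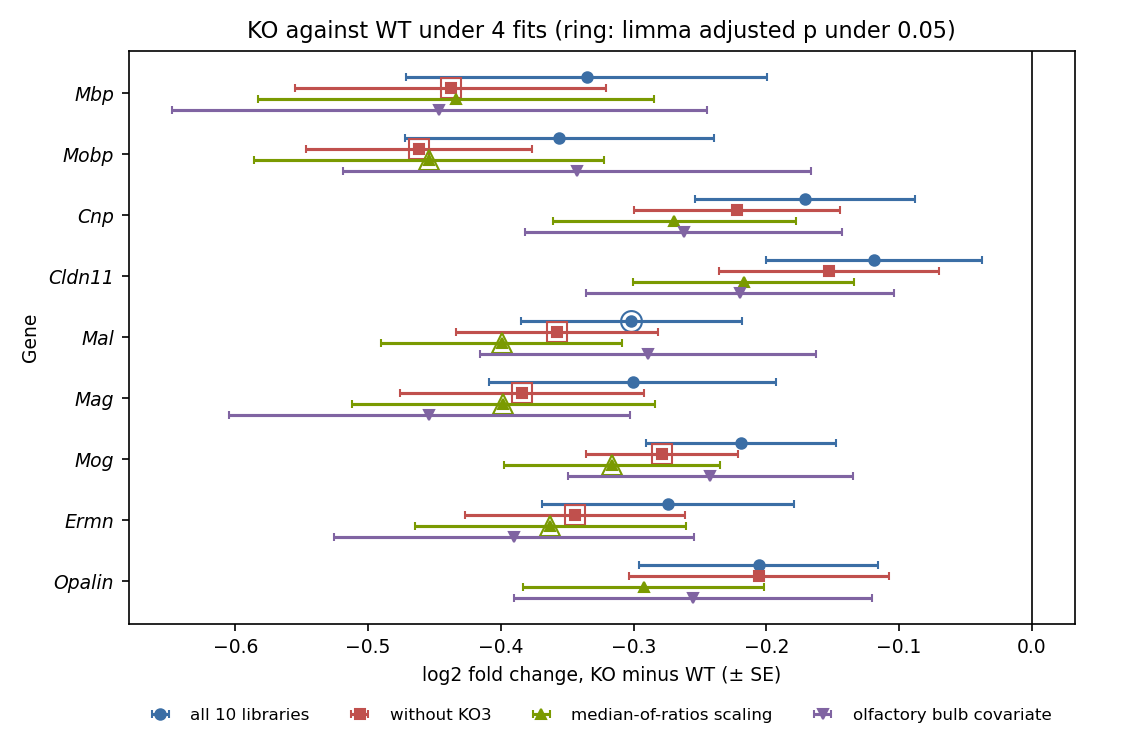
Log2 fold change of each gene, KO minus WT, with its SE, in all 10 libraries, without the library labelled KO3, after median-of-ratios scaling and with a covariate of olfactory bulb markers. Rings mark an adjusted p under 0.05, and all points lie below 0; 1, 6, 5 and 0 genes pass in these fits.

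The count of calls moved with scaling. Deposited FPKM gave 1417 genes called higher and 509 lower. Median-of-ratios scaling gave 607 higher (4.19%) and 946 lower (6.53%). Ermn, Mag, Mal, Mobp and Mog were then called lower, and the median of the 9 was -0.36. The median over all genes tested was then -0.002, against 0.08 at the deposited scale. Lower at an unadjusted p under 0.05 (limma) were 2205 genes, all 9 myelin genes among them, against 1123 at the deposited scale. With this scaling and without the library labelled KO3, all 9 were called lower, with a median of -0.45, where 11.4% of all genes were called lower and 8.84% higher. Library weights called 6 of the 9 lower (all genes 6.15% lower, 18.4% higher), and limma voom called Mal and Mobp (3.98% lower, 10.7% higher).

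Promoters are shown for Mobp, Mag, Mog, Mal and Ermn, which with Mbp are the genes called lower without the library labelled KO3. RefSeq windows of GRCm38.p6, the assembly also called mm10, were matched for 8 of the 9 genes, in 10 windows, and that of Mbp was not used here. Each sequence is the 250 bases before the start site, 5′ to 3′ on the strand of the gene, for Mag before its most upstream RefSeq start, which none of its 8 GENCODE transcripts matched in the bases that follow. Capitals mark matches on either strand to CTGGCAC or CTGGTAC (Myrf), ACAAAG or ACAATG (Sox family) and CAGCTG (an E-box bound by Olig2), none of which overlap in these 5 sequences. Myrf, Sox10 and Olig2 are transcription factors of the oligodendrocyte lineage.
Mobp (chr9:120149492-120149741, plus strand): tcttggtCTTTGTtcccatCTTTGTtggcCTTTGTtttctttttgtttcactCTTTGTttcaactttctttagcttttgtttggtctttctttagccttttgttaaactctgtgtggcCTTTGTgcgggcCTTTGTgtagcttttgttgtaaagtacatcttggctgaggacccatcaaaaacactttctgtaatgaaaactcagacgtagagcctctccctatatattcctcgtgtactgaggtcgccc
Mag (chr7:30914923-30915172, minus strand): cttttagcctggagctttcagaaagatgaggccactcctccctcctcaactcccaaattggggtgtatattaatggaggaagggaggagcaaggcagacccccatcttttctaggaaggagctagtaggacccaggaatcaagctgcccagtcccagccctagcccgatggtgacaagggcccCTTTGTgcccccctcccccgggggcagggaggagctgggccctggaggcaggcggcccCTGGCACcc
Mog (chr17:37023399-37023648, minus strand): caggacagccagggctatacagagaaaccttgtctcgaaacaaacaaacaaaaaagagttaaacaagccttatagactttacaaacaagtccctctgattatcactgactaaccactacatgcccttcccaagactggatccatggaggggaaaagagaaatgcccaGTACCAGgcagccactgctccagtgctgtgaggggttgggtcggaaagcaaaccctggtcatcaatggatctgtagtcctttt
Mal (chr2:127656696-127656945, minus strand): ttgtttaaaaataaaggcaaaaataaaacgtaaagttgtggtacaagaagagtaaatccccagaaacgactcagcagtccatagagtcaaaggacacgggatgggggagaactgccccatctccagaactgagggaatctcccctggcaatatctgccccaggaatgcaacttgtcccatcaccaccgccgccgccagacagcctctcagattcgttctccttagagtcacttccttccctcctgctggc
Ermn (chr2:58052865-58053114, minus strand): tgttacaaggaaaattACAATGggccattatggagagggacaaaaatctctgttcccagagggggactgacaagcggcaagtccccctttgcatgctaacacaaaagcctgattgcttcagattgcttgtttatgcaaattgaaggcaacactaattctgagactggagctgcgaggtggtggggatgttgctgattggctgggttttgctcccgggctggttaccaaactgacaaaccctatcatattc
Windows of 300 bases, which add 50 bases after the start, were searched. ACAAAG or ACAATG was present for Cnp, Ermn, Mag, Mobp and Opalin and in 28.6% of all 32851 windows. Mobp held 6 copies of ACAAAG, all read as CTTTGT on its own strand, at -243 to -120 from the start. No other window held as many, a count picked out after it was seen. CTGGCAC was present for Cnp, Mag and Opalin and in 5.01% of windows, CTGGTAC for Mog and in 2.24%, and CAGCTG for Opalin and in 16.3%. The windows of Mal and Cldn11 held none of these letters. A match is a description and not a binding site.

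Deviations from group means were shared among the 9 genes. All 36 pairs of genes had positive Pearson correlations over the 10 libraries, with a median r of 0.66 and a range of 0.20 to 0.93. Mog and Mal had the highest r, and Mobp and Opalin the lowest. Over the 9 libraries left without that labelled KO3, 34 pairs were positive, the median r was 0.56, and Mobp and Mag stood lowest at -0.29. The values share libraries and scaling and are given as a description.

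Among 8372 other genes with a mean of 5 FPKM or more, those whose deviations were most like those of the 9 included Bhlhe40, Kcnf1, Phyhip, Numb, Gm9899, Rhobtb2 and Tspan2. Their r over the 10 libraries was 0.87 to 0.92, and 0.75 to 0.85 without the library labelled KO3. Without that library they ranked from 29 (Bhlhe40) to 145 (Numb), so other genes were then more alike. Tspan2 encodes an oligodendrocyte tetraspanin. Bhlhe40, a transcriptional repressor, and Phyhip fell in KO, by log2 differences of -0.49 and -0.27 (limma adjusted p = 0.0215 and 0.0372), and Kcnf1, Numb, Gm9899, Rhobtb2 and Tspan2 did not pass. Without the library labelled KO3, Kcnf1, Rhobtb2 and Tspan2 were called lower as well (limma adjusted p = 0.00849, 0.00976 and 0.0363).

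Of 33 other genes of mature oligodendrocytes, 1 was called lower and 3 higher, with a median of -0.04. These shares are near those of all genes, 3.51% lower and 9.77% higher. With the library labelled KO3 left out, 5 of the list were called lower and 3 higher, beside 6.36% and 19.6% of all genes. Tspan2 had a log2 difference of -0.20 (limma adjusted p = 0.0971), which became -0.24 without the library labelled KO3. Tppp, which encodes a microtubule-binding protein of oligodendrocytes, fell, at 114 ± 3.04 FPKM in WT against 93.7 ± 9.97 in KO (SD, n = 5; limma adjusted p = 0.0252), and its groups did not overlap.

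The 3 genes of that list that rose were Apod, Cd9 and Klk6. Apod, a lipid-carrying protein made by several cell types, was at 29.3 ± 3.35 FPKM in WT against 47.3 ± 10.6 in KO (limma adjusted p = 0.0194; errors in this paragraph are SD, n = 5), with no overlap. Cd9, a tetraspanin of many cell types, was at 11.4 ± 2.75 FPKM in WT against 19.5 ± 6.20 in KO (limma adjusted p = 0.0447). Klk6, a secreted protease, was at 0.680 ± 0.344 FPKM in WT against 1.59 ± 0.657 in KO (limma adjusted p = 0.0464). The groups of Cd9 and Klk6 overlapped.

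**Figure D4:**
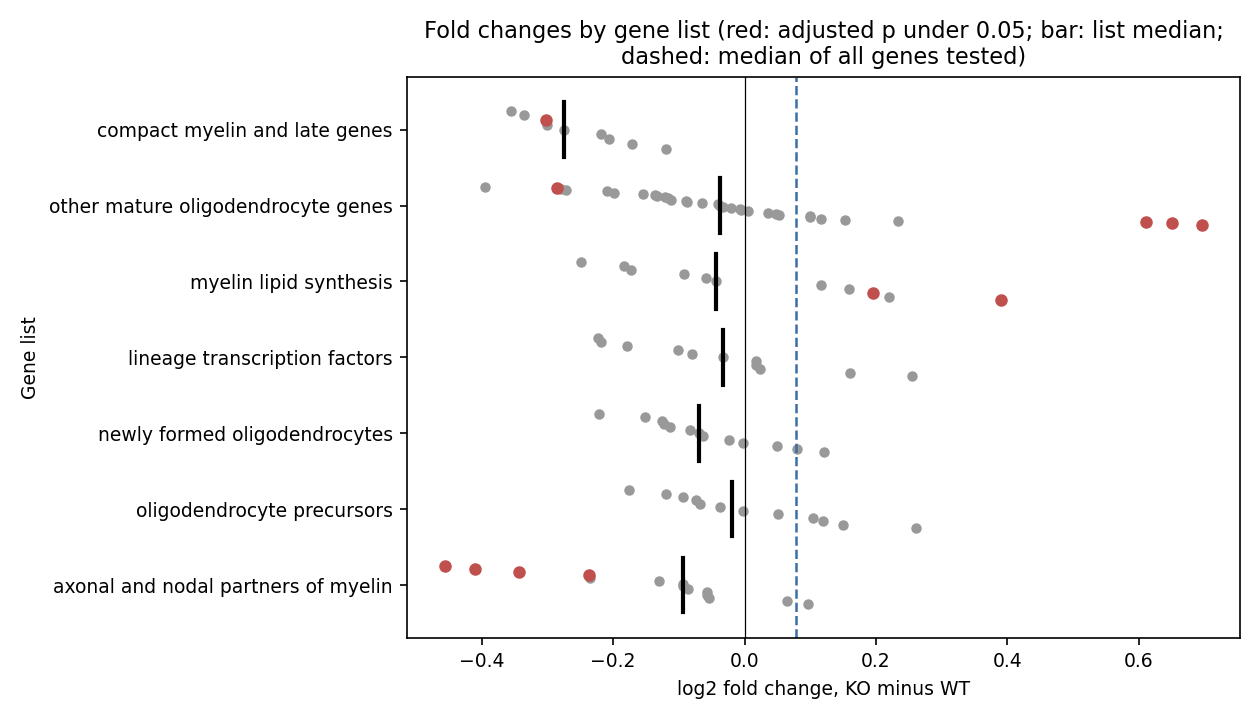
Log2 fold change, KO minus WT (horizontal axis), of each tested gene of the lists of the oligodendrocyte lineage and of axons, 1 point per gene, red where the adjusted p is under 0.05. Black bars are list medians and the dashed line is the median of all genes tested, 0.08; the median of the 9 myelin genes is -0.27.

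Lists of transcription factors and earlier stages are short, and their counts stand beside 3.51% of all genes called lower and 9.77% higher. None of 11 transcription factors of the lineage passed in all libraries. Myrf, which drives the myelin programme, and Olig2, needed throughout the lineage, had log2 differences of -0.22 and -0.22 (limma adjusted p = 0.0643 and 0.0647). With the library labelled KO3 left out Myrf, Olig1 and Olig2 were called lower and Nkx2-2 higher (limma adjusted p = 0.0308, 0.0214, 0.0266 and 0.0432). None of 13 genes of newly formed oligodendrocytes passed in either fit, with Rras2 and Sema4d nearest (limma adjusted p = 0.190 and 0.296). None of 12 precursor genes passed, with C1ql1 and Tnr nearest (log2 difference 0.26 and -0.18, limma adjusted p = 0.0523 and 0.0925), and C1ql1 was called higher with the library labelled KO3 left out.

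Of 11 genes of myelin lipid metabolism 2 rose and none fell in all libraries, where 9.77% of all genes were called higher and 3.51% lower. Without the library labelled KO3, 4 were called higher and 1 lower, where 19.6% and 6.36% of all genes were. Arsa and Smpd1, lysosomal enzymes that break down sulfatide and sphingomyelin, rose in both fits, by 0.39 and 0.20 in all libraries (limma adjusted p = 0.0186 and 0.0386). Degs1 and Galc passed only without the library labelled KO3 (limma adjusted p = 0.0713 and 0.106 in all libraries, 0.0140 and 0.0472 without it), and so did Gal3st1, a sulfatide synthesis enzyme, in the other direction (0.0338 without it).

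Of 14 axonal and nodal partners of myelin 4 fell and none rose, where 3.51% of all genes were called lower and 9.77% higher. Without the library labelled KO3, 5 were called lower, where 6.36% of all genes were, and 0 higher. The 4 were Scn8a and Scn1a, sodium channels of nodes and initial segments, Ank3, which anchors them, and Kcna2, a juxtaparanodal potassium channel. Their log2 differences were -0.34, -0.46, -0.24 and -0.41 (limma adjusted p = 0.0186, 0.0250, 0.0302 and 0.0340). Nfasc passed only without the library labelled KO3 (limma adjusted p = 0.0787 with it and 0.0450 without), and Nrcam in neither fit (0.133 and 0.0957). Kcna1, Cntn2 and Cntnap2 passed in neither fit. In all libraries they had log2 differences of 0.06, 0.10 and -0.06 (limma adjusted p = 0.536, 0.252 and 0.657).

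Markers of other tissue differed between libraries beside these results. Pmp2, a gene of peripheral myelin, was at most 0.0795 FPKM and at 0 in some libraries. Of 4 genes of that list tested, Pmp22 and Mpzl2 rose in both fits (in all libraries, limma adjusted p = 0.0470 and 0.0186). Egr2 went the other way, at -0.65 (limma adjusted p = 0.0864), and was called lower without the library labelled KO3 (-0.80, 0.0217). Of all genes, 9.77% were called higher and 3.51% lower, or 19.6% and 6.36% without that library. The summed level of 10 olfactory bulb markers was 17.6 to 72.5 FPKM in WT and 49.6 to 126 FPKM in KO. Th, Trh, Calb2, Dlx1 and Dlx2, 5 of the 10, were called higher, beside 9.77% of all genes. Omp, Cdhr1, Eomes, Tbx21 and Doc2g did not pass (limma adjusted p = 0.0633 to 0.125). In WT1, where Omp was at 0.270 FPKM, Calb2 was at 7.68 and Dlx1 at 6.31 FPKM. Th, Trh and Dlx2 were at 0.833, 1.80 and 1.72 FPKM there. Some of these markers were thus present where Omp was low, and how much of their level comes from bulb tissue was not tested. The mean log2(FPKM + 1) of the 10 was 1.14 to 1.45 in WT1, WT2 and WT5, 2.26 in WT4 and 2.64 in WT3. It was 2.07 in KO5 and 2.77 to 3.40 in the other KO libraries, so the groups overlapped.

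With the mean of the olfactory bulb markers as a covariate, the median of the 9 was -0.29, and no gene of the table was called (limma, 2342 genes at an unadjusted p under 0.05). The covariate differed between genotypes, and the SE of all 9 differences grew, for Mbp from 0.136 to 0.202. The loss of calls can therefore not be read as an absence of differences. In size, the difference grew for every gene of the 9 but Mobp and Mal, for Mag from -0.30 to -0.45. With that covariate and without the library labelled KO3 the median was -0.34, and Ermn and Mag were called lower, where 2.65% of all genes were called lower and 4.81% higher.

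**Figure D5:**
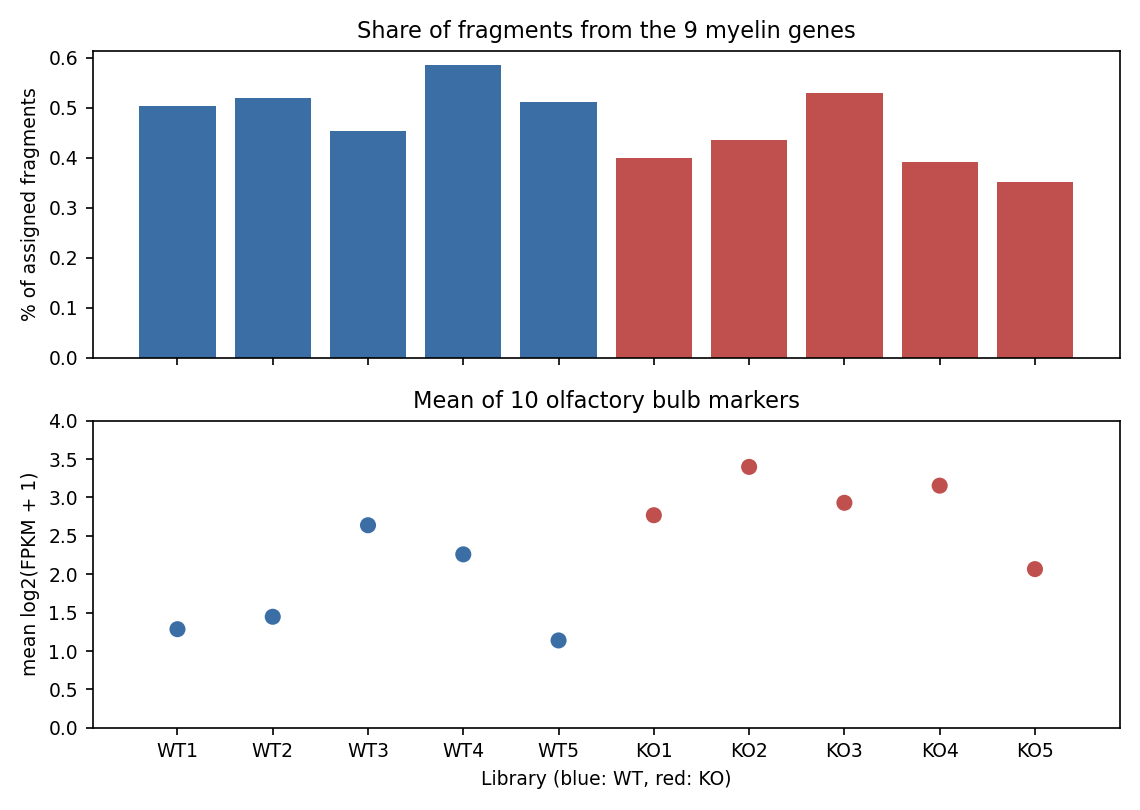
Share of assigned fragments from the 9 myelin genes in each library (bars, from 0), and mean log2(FPKM + 1) of the 10 olfactory bulb markers that served as the covariate (points). The marker mean runs from 1.14 in WT5 to 3.40 in KO2, and the share from 0.351% in KO5 to 0.585% in WT4.

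Neuronal markers also differed. Counts of calls in these short lists stand beside 9.77% of all genes called higher and 3.51% lower. Without the library labelled KO3 these shares were 19.6% and 6.36%. Of 7 genes of layers 6 and 6b, Nxph4, Syt6 and Foxp2 rose, and the summed level was 32.6 to 46.8 FPKM in WT and 52.2 to 70.4 FPKM in KO. Of 6 excitatory neuron genes 3 fell, Camk2a and Nrgn among them, and Slc17a7 was called higher without the library labelled KO3 (0.17 in all libraries, limma adjusted p = 0.202 and 0.0454 without it), while the summed level was 2664 to 3305 FPKM in WT and 2009 to 2695 FPKM in KO. Of 6 interneuron genes Gad1, Gad2, Slc32a1 and Sst rose and Pvalb fell, and the summed level was 250 to 332 FPKM in WT and 359 to 529 FPKM in KO. Of 7 striatal genes Penk and Ppp1r1b rose, and the summed level was 192 to 605 FPKM in WT and 468 to 612 FPKM in KO. The calls among layer 6, interneuron, striatal and olfactory bulb genes were the same genes without the library labelled KO3. None of the excitatory, interneuron or layer 6 genes was at 0 in any library. The part of these markers in the levels of the 9 genes was not tested.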

How the data were processed

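NEBNext Ultra libraries of 10 motor cortex RNA samples were sequenced, per the labels' protocols. DESeq2 and mm10 appear in the submitters' processing notes without a role, and no source used here gives the aligner or counter. The authors deposited FPKM per gene and library beside gene length, per the file headers. FPKM multiplied by length gave whole fragments in 100% of 210325 values above 0 (tolerance 0.02). Sample titles gave group and replicate. The genotypes were compared with limma 3.58.1 in R 4.3.3 (two-sided, trended eBayes) on log2(FPKM + 1). Genes averaging under 0.5 FPKM were left out, and p-values were adjusted by Benjamini-Hochberg over the 14497 that remained, with a threshold of 0.05. This scale understates changes of low genes. The step was tested on simulated data. No pair of libraries agreed within sampling noise.

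The genes and lists were chosen with earlier results of these data known. The text names all 9 genes, the called members of each lineage list (5 or fewer) with up to 2 uncalled members of lowest p, Tmem259, Gfap and the genes most alike (8 by the rule). Some genes the rule names are not reported here. Gal3st1, Kcna1, Cntn2 and Cntnap2 were named after their values were seen. Alternatives covered pseudocount, filter, scaling, variance model, library weights, covariates, a block, libraries left out, voom and an exact test. Leaving out each library in turn was planned. Giving the genes and lists without KO3 was chosen after the Tmem259 and Gfap levels of that library were seen. KO3 was also the highest KO library for most of the 9 genes, and the adjusted p-values without it do not allow for that choice. Fits that combine the loss of KO3 with another change were chosen after seeing the data.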

Additional observations from a re-analysis of the deposited data

Results flagged for a closer look

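Of 20 groups examined, the 9 genes and their sum in each genotype, 1 held a library apart from the rest, where chance gives about 1 in 20. It was Mag in KO, at 125 FPKM in the library labelled KO3, with a gap to the next KO library of 0.777 of the range of the group. The other KO libraries were at 89.3 to 97.2 FPKM.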

How the results depend on the processing

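All 9 genes kept a fold change below 0 in each of the 33 alternatives, 297 values in all. The number of the 9 called lower did not hold. It was 1 in all libraries, 5 with median-of-ratios scaling, 2 with quantile normalization, 6 with library weights, 2 with a Y-linked covariate and 2 with voom. It was 0 without a filter, 0 with the olfactory bulb covariate and 0 in the exact test. With single libraries left out it ran from 0 to 6, the highest without KO3. Without KO3 and a further library it was 6 or 7, without KO3 under median-of-ratios scaling 9, and under the covariate 2. None of the 9 was called higher in these fits. Of all genes tested 1926 were called, and 465 without a filter, where 25406 were tested. The number was 3557 with library weights, 0 with the covariate, 0 in the exact test, and 2 to 3769 with single libraries left out. It was 2407 to 3437 without KO3 and a further library, 1084 with the covariate and without KO3, and 2941 with median-of-ratios scaling and without KO3. Of the fits that left out a single library, those without WT1, without KO2 or without KO4 called 2 genes each. Apart from the filter and the libraries lost, the cause was not tested. The replicate block gave 0 of the 9 genes and 1271 in all. Deviations of same-numbered libraries correlated at -0.06 to 0.14, which neither shows nor excludes a pairing by number. The Y-linked covariate marked WT4, WT5, KO4 and KO5, so same-numbered libraries matched in it. The planned edgeR fit was not run, and voom was run on the recovered fragments. Depth limits Opalin most, at 271 fragments in its lowest library.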
